A study of Homo sapiens with 18 samples.

Results

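MCF10AT1 is a human breast epithelial line derived from MCF10A, a non-tumorigenic immortalized line, by introducing a mutated HRas. The comparison described here sets the MCF10AT1 line labelled METTL3 CRISPR knockdown (METTL3 CRISPR hereafter) against the MCF10AT1 line labelled Control Negative CRISPR (negative CRISPR), each with 3 RNA sequencing libraries named a, b and c. These are 6 of the 18 libraries of a series that also holds both lines of MCF10A and of MCF10CA1h, a line grown from MCF10AT1 through mouse xenografts. The genes compared were the 16050 of 35933 with values whose mean normalized count over the 6 libraries was at least 10.

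Cells of both groups carry the mutated HRas and were grown in the same medium, DMEM/F12 with horse serum, insulin, hydrocortisone, cholera toxin and epidermal growth factor. Both groups received a plasmid with Cas9, a guide RNA and mCherry by transfection and sorting, with either a control guide or a guide to the first exon of METTL3, and were then diluted to single cells and expanded. The 3 libraries of a group therefore come from a single selected line, so p-values measure the spread between libraries of a line and hold no difference between independent clones. A clone effect and an effect of METTL3 editing cannot be told apart. METTL3 is the catalytic subunit of the complex that writes N6-methyladenosine (m6A) on RNA.

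Epithelial cells hold to each other through E-cadherin junctions, desmosomes and tight junctions, and to the basement membrane through hemidesmosomes and their laminin. In epithelial to mesenchymal transition (EMT), factors of the SNAI, ZEB and TWIST families bind E-box sequences and lower epithelial genes, while OVOL, GRHL and ELF factors, the splicing factors ESRP1 and ESRP2 and the miR-200 and miR-205 microRNAs maintain the epithelial state. Mesenchymal cells typically carry N-cadherin, vimentin, fibronectin and other matrix proteins, and often secrete cytokines. MCF10A-derived lines express keratins of both basal and luminal breast cells.

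No difference in METTL3 RNA passed the test. Normalized counts were 968, 1016 and 805 in the negative CRISPR libraries and 816, 752 and 902 in the METTL3 CRISPR libraries, and the groups overlapped (log2 fold change -0.17 ± 0.26 SE, adjusted p = 0.707), with p = 0.3 in an exact two-sided permutation test whose smallest possible p for 3 against 3 libraries is 0.1. An edit in an exon need not change the RNA level, so this measure does not show whether METTL3 was edited, and the directions below are those of libraries so labelled. Of the 20 genes for m6A writers, erasers and readers with enough signal, 0 were differentially expressed by limma and 4 had groups that did not overlap, against 13% called and 32.8% not overlapping over all tested genes, with log2 fold changes from -1.02 to 0.81. At an unadjusted p under 0.05, 1 of the 20 passed, YTHDC2 (-1.02), a reader and helicase.

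The 6 libraries had normalized counts summing to between 2.14e+07 and 3.17e+07, and each library's mean correlation with its replicates was between 0.903 and 0.951 across genes. A pair of neighbouring genes on the X chromosome set the METTL3 CRISPR libraries apart before any list is read. EMD, which encodes the nuclear membrane protein emerin (chromosome X, 154379273 to 154381574, hg38), had normalized counts of 1400.1, 1582 and 1181 in the negative CRISPR libraries and 1.00, 0 and 3.31 in the METTL3 CRISPR libraries. FLNA, which encodes the actin crosslinker filamin A (154348524 to 154374634), had 15285, 21996 and 10433 in the negative CRISPR libraries and 646, 737 and 1001 in the METTL3 CRISPR libraries, a log2 fold change of -4.28 (adjusted p = 0.000169). In MCF10CA1h, EMD was also near 0 in both groups, at 1.23, 0 and 0 in negative CRISPR and 1.19, 0 and 1.33 in METTL3 CRISPR, whereas the 6 MCF10A libraries lay between 1065 and 1533. FLNA stood at 534, 575 and 396 in negative CRISPR MCF10CA1h, below all MCF10A and negative CRISPR MCF10AT1 libraries. The neighbours RPL10, DNASE1L1, TAFAZZIN and IRAK1 were not differentially expressed in MCF10AT1. Their part in the results below was not tested, and the plot of 6 genes across the 3 lines shows EMD, FLNA and RPL10 in every library.

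Across 15897 genes, a METTL3 CRISPR library of MCF10AT1 correlated with a negative CRISPR library of MCF10CA1h at a mean r of 0.853, with one of MCF10AT1 at 0.822 and with one of MCF10A at 0.752. These values are a description over genes of libraries that share a table. Single values of r overlapped, from 0.828 to 0.866 with negative CRISPR MCF10CA1h and from 0.755 to 0.857 with negative CRISPR MCF10AT1. The mean r of METTL3 CRISPR libraries of MCF10AT1 with each other was 0.941. It was 0.916 within negative CRISPR MCF10AT1 and 0.979 within negative CRISPR MCF10CA1h. With METTL3 CRISPR libraries of MCF10CA1h the mean r was 0.837 (0.820 to 0.852), inside the range with negative CRISPR MCF10AT1. The lower agreement within negative CRISPR MCF10AT1 also limits what the mean r between groups can show. In EMD and FLNA the libraries labelled MCF10AT1 METTL3 CRISPR were nearer to negative CRISPR MCF10CA1h than to negative CRISPR MCF10AT1. The origin of the METTL3 CRISPR line is therefore in doubt and was not tested, and each fold change given here holds for the libraries as labelled, with any difference of origin included.

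**Figure D1:**
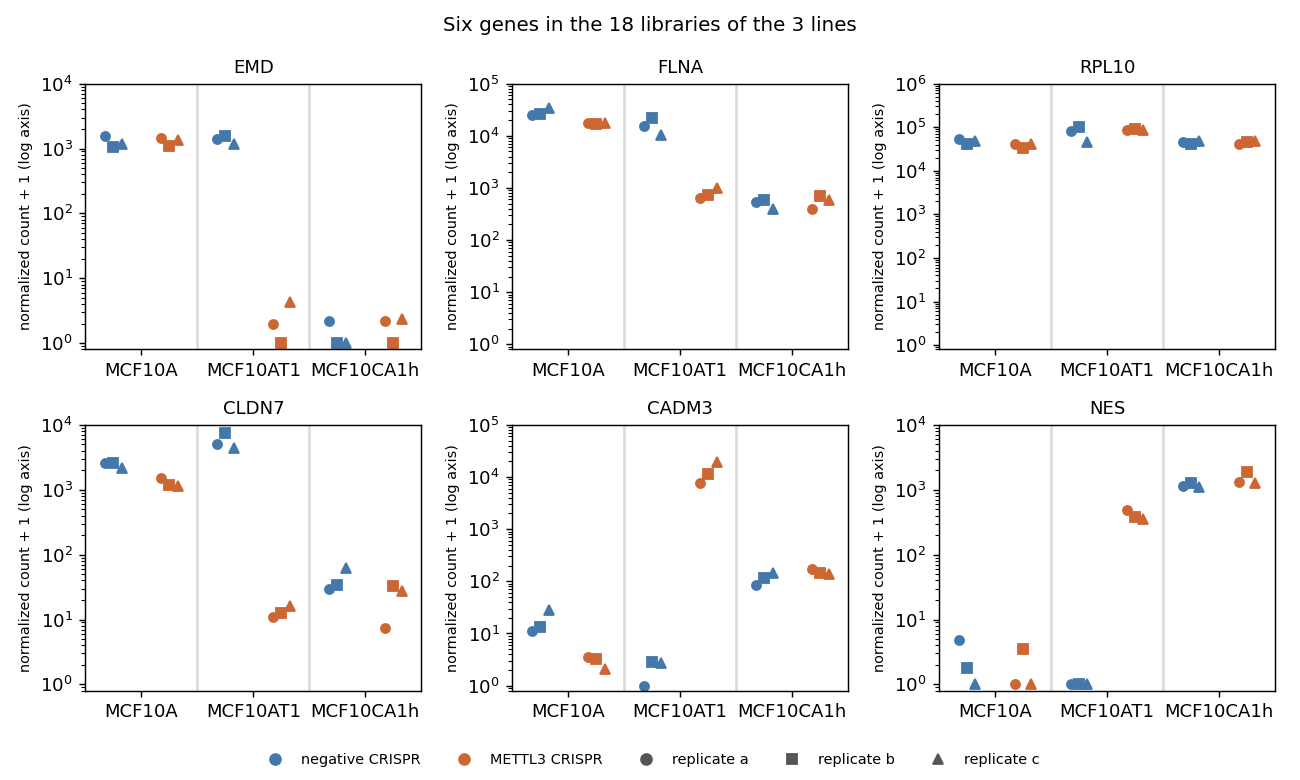
Normalized counts plus 1 (log axis) of 6 genes in the 18 libraries of MCF10A, MCF10AT1 and MCF10CA1h. Blue is negative CRISPR, orange METTL3 CRISPR, and the marker gives the replicate. EMD lies between 1065 and 1533 in MCF10A and at 0 to 3.31 in the METTL3 CRISPR libraries of MCF10AT1, NES is listed at 0 in all 3 negative CRISPR libraries of MCF10AT1, and RPL10, a neighbour of EMD, varies little.

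In MCF10AT1, 2091 of the 16050 genes (13%) were differentially expressed at an adjusted p under 0.05, 1134 higher (7.07%) and 957 lower (5.96%) in METTL3 CRISPR. Their median absolute log2 fold change was 2.72, and 602 had one of 4 or more in size, 326 higher and 276 lower. Over all tested genes the median log2 fold change was 0.02, and 32.8% had groups that did not overlap. The number of calls was 1125 without negative CRISPR a, 1380 without METTL3 CRISPR a and 1038 without METTL3 CRISPR b. Fold changes are differences of log2(normalized count + 1), so those of genes near 0 in a group depend on the added 1, and none is given where a group is listed at 0 in all 3 libraries.

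Among genes with a mean of at least 50 and groups that do not overlap, the largest falls were those of RAB25 (-9.81), PRSS8 (-9.42), EMD (-9.39), AZGP1 (-9.03), ESRP1 (-8.89), FUT3 (-8.80), AP1M2 (-8.78), CLDN7 (-8.71), FXYD3 (-8.70), LAD1 (-8.40), CD24 (-8.35), KRT15 (-8.13), CLDN4 (-8.08) and LINC02967 (-8.07), all log2 fold changes, together with MUC16, a surface mucin with normalized counts of 485, 179.9 and 211 in negative CRISPR and listed at 0 in METTL3 CRISPR. Among these, CLDN4 and CLDN7 encode claudins of tight junctions, RAB25 and AP1M2 proteins of membrane trafficking, KRT15 a keratin and ESRP1 a splicing factor. The largest rises were those of CADM3 (12.56), SRGN (11.28), CSF3 (11.20), ICAM1 (10.44), FN1 (10.08), FABP4 (10.01), CMKLR1 (9.82), HP (9.76), THY1 (9.61), SYNGR1 (9.21), CHST2 (9.17), BST2 (9.03) and F2RL2 (8.95), with ACKR1 and COL6A2 listed at 0 in negative CRISPR. They include adhesion molecules (CADM3, ICAM1, THY1), matrix (FN1, COL6A2), the cytokine G-CSF (CSF3) and the fatty acid carrier FABP4. CADM3 (chromosome 1, 159171609 to 159203313) and ACKR1 (159204875 to 159206500) are neighbours on hg38.

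Of transcription factors, post-transcriptional regulators and lineage factors in 4 lists, 19 of 46 tested were called, with 5 rises and 14 falls, against 13% of all genes (11 without negative CRISPR a, 12 without METTL3 CRISPR b). Among epithelial factors 8 of 14 fell and 1 rose, with a median log2 fold change of -2.001. ELF3, an ETS factor of epithelial differentiation, had normalized counts of 6412, 2259.5 and 3811 in the negative CRISPR libraries and 44.1, 15.4 and 34.8 in the METTL3 CRISPR libraries (log2 fold change -6.999 ± 0.51 SE, adjusted p = 0.000112). OVOL2, a zinc finger repressor of ZEB1, stood at 562, 736 and 377 in the negative CRISPR libraries and 0, 3.49 and 1.45 in the METTL3 CRISPR libraries (log2 fold change -7.92, adjusted p = 0.000202). In both genes the lowest negative CRISPR library was far above the highest METTL3 CRISPR library.

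OVOL1 also fell, from 96.5, 80.8 and 211 to 0.980, 0.840 and 0 (log2 fold change -6.28, adjusted p = 0.000657), as did the grainyhead factors GRHL2 (-6.90) and GRHL1 (-3.47). GRHL2 was 32.6 in METTL3 CRISPR b and under 1 in a and c. TFAP2C (-1.43) and the luminal pioneer factor FOXA1 (-2.06) fell less. GRHL3, the third grainyhead factor, rose, with 34.0, 36.0 and 158 in the negative CRISPR libraries and 542, 674 and 1900.0 in the METTL3 CRISPR libraries (log2 fold change 3.91, adjusted p = 0.00781). No difference passed the test for the basal factor TP63 (1.05, adjusted p = 0.336), the luminal factor GATA3 (0.12, 0.85), EHF (-1.42, 0.303), KLF5 (-1.95, 0.353) or TFAP2A (-0.56, 0.469), whose groups overlapped. ELF5 and SPDEF were under the mean of 10, and TFAP2B was not analysed here.

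Against 13% of all genes called, 3 of 13 tested EMT-inducing factors rose and 1 fell, with a median of 0.59. This count depended on the fit, with 6 higher and 1 lower both with all 18 libraries in a fit and with the replicate letter as a block, 2 called without METTL3 CRISPR a, and 1 called without negative CRISPR a, without METTL3 CRISPR b or at an adjusted p under 0.01. The homeobox gene PRRX2 rose from 21.4, 15.7 and 7.71 to 458, 667 and 332 (log2 fold change 4.98 ± 0.50 SE, adjusted p = 0.000489). FOXC2 rose as well (1.64, adjusted p = 0.0181). SNAI2, which encodes Slug and is also a gene of basal breast cells, fell from 469, 339 and 865 to 55.2, 74.5 and 204 (log2 fold change -2.44, adjusted p = 0.0249). Every METTL3 CRISPR library lay under every negative CRISPR library for SNAI2, opposite to the inducer's textbook direction.

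ZEB1, the factor held down by miR-200, had 1.36, 1.28 and 41.0 in the negative CRISPR libraries and 46.9, 33.6 and 148 in the METTL3 CRISPR libraries (log2 fold change 3.37, adjusted p = 0.104), and negative CRISPR c overlapped the METTL3 CRISPR range. ZEB2 had 19.9, 2.04 and 45.7 in the negative CRISPR libraries and 92.2, 125 and 243 in the METTL3 CRISPR libraries (log2 fold change 3.31, adjusted p = 0.0582), with groups that did not overlap. Neither passed the test. Values also missed it for TWIST1 (0.16, adjusted p = 0.83), TWIST2 (1.12, 0.0896), TCF4 (0.59, 0.673), FOXC1 (-0.38, 0.532), SIX2 (0.39, 0.66), KLF8 (-0.55, 0.598) and HMGA2 (0.37, 0.596). SNAI3 and PRRX1 were under the mean of 10, and GSC was not analysed here.

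Of 29 transcription factors of mesenchymal lineages, 14 were tested and NR2F1 alone was called, where 13% of all genes were. NR2F1 had 185, 209 and 266 in the negative CRISPR libraries and 1446, 2352 and 3711 in the METTL3 CRISPR libraries (log2 fold change 3.41 ± 0.38 SE, adjusted p = 0.00083). It encodes the nuclear receptor COUP-TF1. EBF1 had 0, 12.9 and 6.62 in the negative CRISPR libraries and 93.2, 29.3 and 50.1 in the METTL3 CRISPR libraries (log2 fold change 3.48, adjusted p = 0.0601) and did not pass. Another 11, among them TCF21, MEOX1, TBX5, PAX3 and WT1, were under the mean of 10. Calls among these regulators were lost on leaving out a library, with the highest adjusted p without METTL3 CRISPR replicate b for SNAI2 and RBM47 (0.105 to 0.139) and without negative CRISPR replicate a for TFAP2C, MIR200CHG, FOXC2, FOXA1 and GRHL1 (0.082 to 0.0981).

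**Figure D2:**
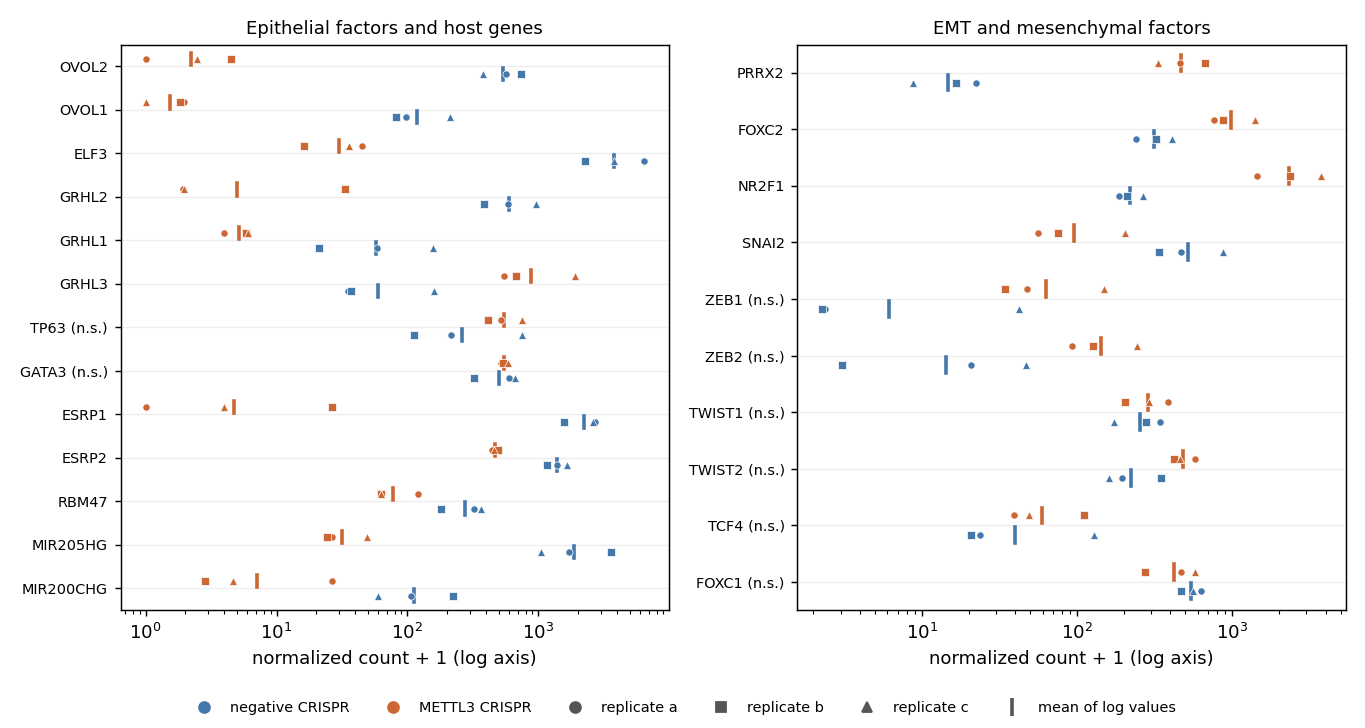
Normalized counts plus 1 (log axis) of transcription factors, splicing factors and microRNA host genes in the 6 MCF10AT1 libraries. Blue is negative CRISPR, orange METTL3 CRISPR, the marker gives the replicate, the bar is the mean of the log values, and n.s. marks genes that did not pass the test. ELF3 lies between 2259.5 and 6412 in negative CRISPR and between 15.4 and 44.1 in METTL3 CRISPR, while the groups of ZEB1 and of TWIST1 overlap.

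All 5 epithelial post-transcriptional regulators fell, the splicing factors ESRP1, ESRP2 and RBM47 and the host transcripts of 2 microRNA loci, with a median log2 fold change of -3.99. ESRP1 fell from 2716, 1584 and 2606 to 0, 25.4 and 2.98 (log2 fold change -8.89, adjusted p = 0.000966), and its paralogue ESRP2 from 1389.7, 1164 and 1652 to 443, 493 and 459 (log2 fold change -1.58, adjusted p = 0.00591). ESRP2 was thus still detected at 443 or more in all METTL3 CRISPR libraries, and ESRP1 was far lower in each. RBM47 fell by less (-1.82, adjusted p = 0.0311).

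MIR205HG, the host transcript of miR-205, fell from 1722, 3585 and 1047 to 25.6, 23.2 and 48.5 (log2 fold change -5.88 ± 0.51 SE, adjusted p = 0.000253). MIR200CHG, the host of miR-200c and miR-141, fell from 105, 223 and 58.3 to 25.4, 1.86 and 3.65 (log2 fold change -3.99, adjusted p = 0.0236). Groups did not overlap for either host, and mature microRNAs were not measured. Both loci encode microRNAs that target ZEB1 and ZEB2 RNA, and their mature sequences (RefSeq, GRCh38.p14) are shown because their seeds, bases 2 to 8 in capitals, define the targets. The mature miR-205-5p lies at chr1:209432166-209432187 on the plus strand, miR-200c-3p at chr12:6963742-6963764 and miR-141-3p at chr12:6964155-6964176, also plus.
hsa-miR-205-5p: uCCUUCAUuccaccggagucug
hsa-miR-200c-3p: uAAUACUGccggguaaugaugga
hsa-miR-141-3p: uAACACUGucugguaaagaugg
The seeds of miR-200c-3p and miR-141-3p differ at a single base, and the seed of miR-205-5p is unrelated to either.

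SNAI and ZEB factors bind the E-box letters CACCTG, which read CAGGTG on the other strand, so the 250 bases before each gene's start were searched for these letters on both strands. For 56 epithelial genes that fell, RefSeq windows were found for 35 genes, and 22 of these genes (62.9%) held at least 1 match. By window, 23 of 46 held a match, against 26.8% of 988 windows of all genes that fell, 17.2% of 1234 windows of genes that rose, 16.2% of 16396 windows of tested genes and 17.5% of all 35116 windows. A match is a description of letters and not of a bound site, and the epithelial genes were listed by function with earlier results known. The most matches were 5 before CRB3 and 4 before CLDN7, and CDH1, EPCAM and OVOL2 had no window. The windows of RAB25 (chr1:156060910-156061159, plus strand), AP1M2 (chr19:10587313-10587562, minus strand) and MIR200CHG (chr12:6962995-6963244, plus strand) are shown, GRCh38.p14, with matches in capitals, since these genes were among the largest falls or host the microRNAs above.
RAB25: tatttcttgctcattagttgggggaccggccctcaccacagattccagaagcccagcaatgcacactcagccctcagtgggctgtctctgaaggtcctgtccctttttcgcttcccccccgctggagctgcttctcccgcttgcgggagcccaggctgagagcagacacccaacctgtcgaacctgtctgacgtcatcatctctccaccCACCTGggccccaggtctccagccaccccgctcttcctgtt
AP1M2: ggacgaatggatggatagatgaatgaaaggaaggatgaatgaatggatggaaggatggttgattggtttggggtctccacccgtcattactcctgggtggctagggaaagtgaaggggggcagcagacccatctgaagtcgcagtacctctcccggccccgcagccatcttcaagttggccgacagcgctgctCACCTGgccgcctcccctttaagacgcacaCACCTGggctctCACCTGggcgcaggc
MIR200CHG: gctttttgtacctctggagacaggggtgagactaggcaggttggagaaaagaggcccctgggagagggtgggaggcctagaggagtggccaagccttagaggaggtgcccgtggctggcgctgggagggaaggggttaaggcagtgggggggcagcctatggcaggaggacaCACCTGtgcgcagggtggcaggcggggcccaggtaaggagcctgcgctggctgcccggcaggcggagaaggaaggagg
AP1M2 holds 3 matches within the last 57 bases, RAB25 1 match 41 bases before its start and MIR200CHG 1 match 78 bases before.

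Adhesion genes were the most changed group: 74 of 106 tested were differentially expressed, 21 higher and 53 lower, against 13% of all genes. The median log2 fold change of the tested adhesion genes was -1.65. Without a single library the number called stayed between 55 and 73. Cadherins split. CDH1, which encodes E-cadherin (chromosome 16, 68737292 to 68835537, hg38), had 3475, 2105 and 6138 in the negative CRISPR libraries and 11.6, 31.7 and 79.2 in the METTL3 CRISPR libraries (log2 fold change -6.79 ± 0.68 SE, adjusted p = 0.000474). CDH3, the P-cadherin of basal cells, fell from 6236, 4393 and 6627 to 1298, 1684 and 1927 (log2 fold change -1.81, adjusted p = 0.00444). P-cadherin RNA thus kept a high level in every METTL3 CRISPR library, while E-cadherin RNA was low in each. CDH24 fell as well (-1.68, adjusted p = 0.0488).

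N-cadherin (CDH2) rose from 0.720, 0 and 4.1 to 243, 362 and 468 (log2 fold change 7.39 ± 0.70 SE, adjusted p = 0.000361). Cadherin-11 (CDH11), a mesenchymal cadherin, rose from 0, 0 and 7.10 to 141, 96.7 and 256 (log2 fold change 6.25, adjusted p = 0.00314), and retinal cadherin CDH4 from 1.84, 6.96 and 1.68 to 60.1, 318 and 212 (log2 fold change 5.35, adjusted p = 0.00297). For all 3 the negative CRISPR libraries were at or near 0 and the groups did not overlap. CDH13 did not pass (-0.83, 0.515), and CDH5, CDH6, CDH10, CDH12, CDH15 and CDH18 were under the mean of 10.

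Desmosomes tie keratin filaments to the cell membrane, and 7 of their 9 tested genes fell, against 5.96% of all genes, with a median of -2.36. Desmoglein 3 (DSG3) had 3494, 1776 and 6641 in the negative CRISPR libraries and 6.87, 15.8 and 15.9 in the METTL3 CRISPR libraries (log2 fold change -8.05 ± 0.55 SE, adjusted p = 8.1e-05). The desmocollins DSC2 (-6.48) and DSC3 (-5.40) fell nearly as far, and the plaque protein desmoplakin (DSP) fell from 4673, 2753 and 11929.6 to 336, 357 and 564 (log2 fold change -3.71, adjusted p = 0.00235). PERP (-2.36), JUP (-1.46) and PKP3 (-1.21) fell less. DSG2 (-2.05, 0.0718) and PKP2 (-1.53, 0.057) had groups that did not overlap but did not pass, and DSG1, DSG4, DSC1 and PKP1 were under the mean of 10.

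Tight junctions seal epithelia, and 16 of 19 tested genes of these junctions and of apical polarity fell and 0 rose, with a median of -3.81, or -3.26 without CLDN8, which is listed at 0 in METTL3 CRISPR. CLDN4 fell from 19484, 10564 and 12606 to 31.7, 38.7 and 101 (log2 fold change -8.08, adjusted p = 3.92e-05). CLDN7 fell from 5002, 7369.7 and 4331 to 9.95, 11.6 and 14.9 (log2 fold change -8.71 ± 0.34 SE, adjusted p = 1.87e-05). CLDN1 fell from 2333, 801 and 1742 to 20.6, 135 and 231 (log2 fold change -4.07, adjusted p = 0.0146). For each of these claudins the highest METTL3 CRISPR library lay below the lowest negative CRISPR library.

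Occludin (OCLN) fell by -4.90 in log2 fold change, and so did the related MARVELD2 (-3.81) and MARVELD3 (-6.24), the junction scaffolds CGN (-6.10), TJP3 (-1.59) and PATJ (-1.67), and the polarity genes CRB3 (-6.52) and LLGL2 (-4.56). F11R (-1.71), LSR (-1.96), CLDN12 (-1.87) and CLDN23 (-2.70) fell too. The scaffold TJP1 (-1.27, adjusted p = 0.178) and PARD6B (-1.34, 0.334) did not pass, and CLDN3, CGNL1 and ILDR1 were under the mean of 10.

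Of 20 genes of the epithelial surface and its trafficking, 17 fell and 0 rose, against 5.96% and 7.07% of all genes, with a median of -4.63. RAB25, a GTPase of apical recycling, stood at 3449.6, 4741 and 2037 in the negative CRISPR libraries and 2.02, 1.76 and 4.5 in the METTL3 CRISPR libraries (log2 fold change -9.81 ± 0.47 SE, adjusted p = 2.51e-05). The membrane protease prostasin (PRSS8) fell from 2579, 3345 and 2413 to 1.22, 3.66 and 5.22 (log2 fold change -9.42, adjusted p = 2.51e-05), and EpCAM (EPCAM) from 4291, 3494 and 3572 to 78.8, 115 and 126 (log2 fold change -5.16, adjusted p = 3.83e-05). No METTL3 CRISPR library came near a negative CRISPR library for any of these. CD24, an antigen whose low level marks mesenchymal breast cells, fell from 4805, 2628 and 5603 to 16.3, 10.7 and 9.05 (log2 fold change -8.35, adjusted p = 2.51e-05). Others that fell were LAD1 (-8.40), AP1M2 (-8.78), C1orf116 (-6.79), KRTCAP3 (-6.68), PROM2 (-6.56), TMEM30B (-6.51), CDS1 (-4.11), MYO5B (-3.99), ST14 (-3.55), MAL2 (-3.09), SH2D3A (-3.06) and SPINT1 (-1.63), as log2 fold changes. MUC1 (-2.47, 0.0845), SPINT2 (-0.63, 0.195) and SYTL1 (0.20, 0.753) did not pass.

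**Figure D3:**
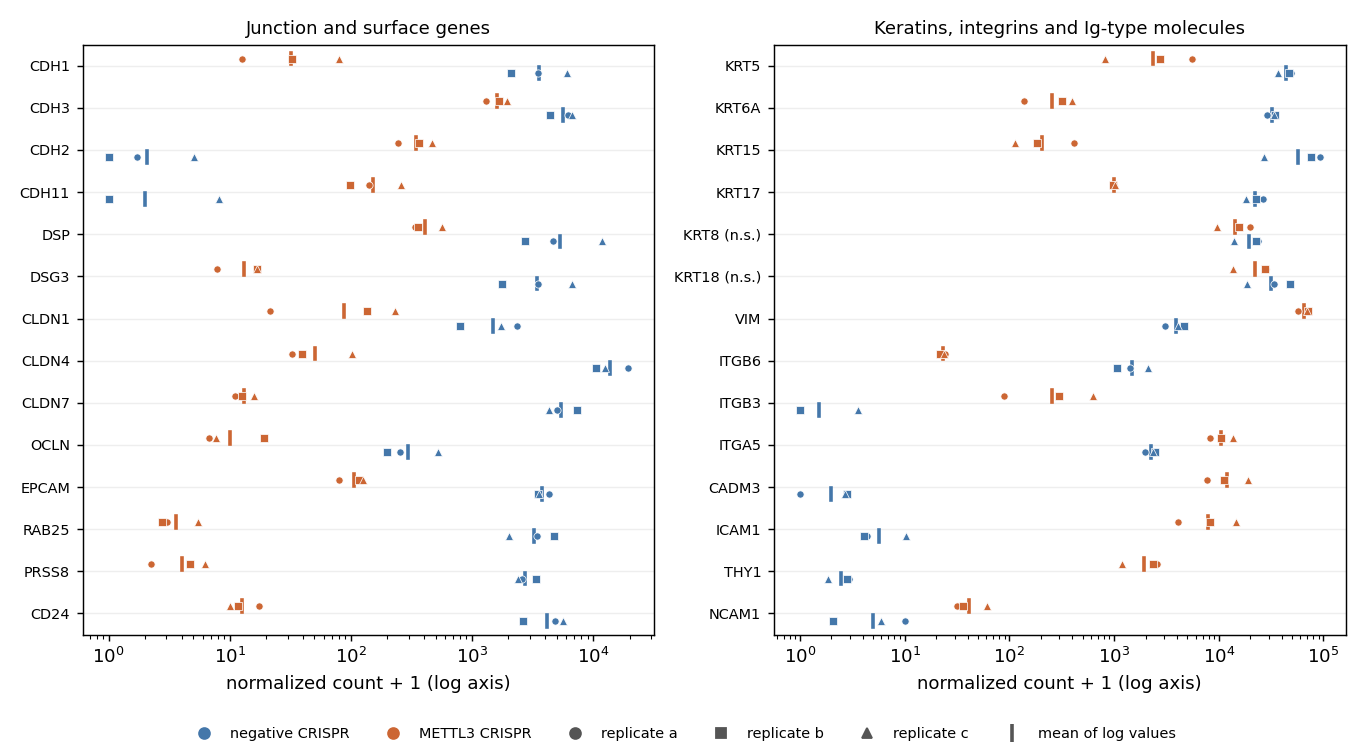
Normalized counts plus 1 (log axis) of junction, surface, keratin, integrin and immunoglobulin-type genes in the 6 MCF10AT1 libraries. Blue is negative CRISPR, orange METTL3 CRISPR, the marker gives the replicate, the bar is the mean of the log values, and n.s. marks genes that did not pass the test. CDH1 lies between 2105 and 6138 in negative CRISPR and between 11.6 and 79.2 in METTL3 CRISPR, CDH2 does the opposite, and KRT8 and KRT18 overlap.

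Of 17 tested keratin genes 9 fell and 1 rose, against 5.96% and 7.07% of all genes, with a median of -2.36. The basal keratin KRT15 fell from 91624, 75219.9 and 27151 to 411, 183 and 112 (log2 fold change -8.13, adjusted p = 0.000101), KRT17 from 26443, 22916 and 18003 to 989, 978 and 1028 (log2 fold change -4.47 ± 0.25 SE, adjusted p = 3.83e-05) and KRT5 from 48735, 47282 and 36863 to 5540.2, 2771 and 824 (log2 fold change -4.24, adjusted p = 0.00289). KRT5 was still well detected in each METTL3 CRISPR library and was lowest in c. KRT6A (-6.97), KRT6B (-6.69), KRT6C (-4.46), KRT16 (-2.80), KRT14 (-2.36) and KRT80 (-1.59) fell, and KRT23 rose (1.57).

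The simple keratins KRT8 and KRT18 of luminal cells were at high levels in all 6 libraries. KRT8 had 23432, 22713 and 14037 in the negative CRISPR libraries and 19882, 15446 and 9545 in the METTL3 CRISPR libraries (log2 fold change -0.45, adjusted p = 0.473), and KRT18 had 34008, 48394 and 18503 in the negative CRISPR libraries and 28075, 27864 and 13608 in the METTL3 CRISPR libraries (log2 fold change -0.51, adjusted p = 0.516). KRT7 (-0.04, 0.971), KRT10 (-0.06, 0.94), KRT81 (-1.22, 0.189) and KRT86 (-1.16, 0.34) did not pass either, and their groups overlapped. KRT19, another simple keratin of luminal cells, was far less abundant, with 60.4, 24.7 and 14.1 in the negative CRISPR libraries and 15.1, 2.30 and 0 in the METTL3 CRISPR libraries (log2 fold change -2.94, adjusted p = 0.119), and did not pass, with overlapping groups. KRT6A, KRT6B and KRT6C, and KRT81 and KRT86, are near-identical copies whose reads can be split between them, so their separate values are uncertain. The other KRT1, KRT4, KRT13, KRT34, KRT75 and KRT83 were under the mean of 10.

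Hemidesmosome genes gave a mixed result, with 3 of 9 lower and 1 higher, against 5.96% and 7.07% of all genes. COL17A1, the transmembrane collagen of the hemidesmosome, fell from 19824, 24164 and 10015 to 60.4, 80.4 and 66.7 (log2 fold change -7.92 ± 0.37 SE, adjusted p = 2.25e-05). Of the laminin that hemidesmosomes bind, the chain LAMA3 fell from 6399.8, 9629.7 and 4614 to 744, 961 and 953 (log2 fold change -2.90, adjusted p = 0.000814), and LAMB3 did not pass (-1.06, 0.108). The receptor chain ITGB4 had 29884, 51829 and 21514 in the negative CRISPR libraries and 48088, 92425 and 167977 in the METTL3 CRISPR libraries (log2 fold change 1.5, adjusted p = 0.104), with overlapping groups. CD151 rose (1.23, 0.0389), while ITGA6 (-1.15, 0.145), DST (0.15, 0.778) and PLEC (0.70, 0.276) did not pass.

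Connexins form gap junctions. GJA1 (connexin 43) rose from 0, 0 and 3.26 to 178, 133 and 571 (log2 fold change 7.21, adjusted p = 0.000966). The epithelial connexin GJB5 (-3.36) fell. The tested connexins GJA3, GJA5, GJB2 and GJC1 did not pass, with adjusted p from 0.117 (GJB2) to 0.673 (GJC1), GJB1 and GJB6 were under the mean of 10 and GJA4 was not analysed here.

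Among 18 tested immunoglobulin-type adhesion molecules 7 rose and 1 fell, against 7.07% and 5.96% of all genes. CADM3, a neural cell adhesion molecule, had 0, 1.81 and 1.72 in the negative CRISPR libraries and 7779, 11305 and 19143 in the METTL3 CRISPR libraries (log2 fold change 12.56 ± 0.53 SE, adjusted p = 1.87e-05). ICAM1, the leukocyte ligand induced by NF-kB, rose from 3.34, 3.12 and 9.21 to 4121, 8163 and 14585 (log2 fold change 10.44 ± 0.56 SE, adjusted p = 3.16e-05), and THY1 (CD90) from 1.91, 1.81 and 0.870 to 2557, 2364 and 1199.5 (log2 fold change 9.61, adjusted p = 2.51e-05). For all 3 the negative CRISPR libraries were near 0 and the METTL3 CRISPR libraries high. VCAM1 (26.9, 59.0 and 43.9 in METTL3 CRISPR, adjusted p = 0.00179) and NRCAM (108, 95.2 and 227, 0.000309) were listed at 0 in negative CRISPR.

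MCAM (3.32) and NCAM1 (3.05) also rose, and NECTIN4, an epithelial nectin, fell from 422, 307 and 468 to 20.7, 7.27 and 9.83 (log2 fold change -4.98, adjusted p = 0.000452). The other tested members did not pass: ICAM3, ICAM5, L1CAM, ALCAM, BCAM, CADM4, NECTIN1, NECTIN2, NECTIN3 and NFASC. Among them NECTIN2 (1.29, 0.08), NFASC (1.66, 0.121) and CADM4 (-0.78, 0.214) had groups that did not overlap. The members ICAM2, ICAM4, CADM1 and CADM2 were under the mean of 10, and NCAM2 and CHL1 were not analysed here.

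Integrin chains, the receptors for matrix, were listed together with ITGBL1, an integrin beta-like gene that is not a receptor chain. Of these genes 9 of 18 were higher and 3 lower, against 7.07% and 5.96% of all genes. ITGB3, the beta chain of the vitronectin receptor, rose from 0, 0 and 2.60 to 88.0, 294 and 634 (log2 fold change 7.38, adjusted p = 0.00113). ITGA5, the fibronectin receptor chain, rose from 1970.5, 2433 and 2364 to 8193, 10543 and 13707 (log2 fold change 2.24 ± 0.28 SE, adjusted p = 0.00145). ITGB6, the epithelial partner of ITGAV that activates TGF-beta, fell from 1426, 1072 and 2122 to 23.3, 20.9 and 22.8 (log2 fold change -5.99 ± 0.37 SE, adjusted p = 4.8e-05). None of these 3 had overlapping groups, and ITGAV itself did not pass (0.29, 0.827). ITGBL1 (8.37), ITGA7 (3.88), ITGA11 (3.48), ITGA10 (2.69), ITGA3 (2.23), ITGB5 (1.58) and ITGB2 (0.999) rose, ITGB7 (-3.21) and ITGB8 (-2.40) fell, and ITGA1, ITGA2 and ITGB1 did not pass (adjusted p from 0.108 to 0.507). The chains ITGA4, ITGA8 and ITGA9 were under the mean of 10.

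Calls of adhesion and keratin genes were lost on leaving out a library, with the highest adjusted p without METTL3 CRISPR replicate a for KRT80 and CLDN12 (0.125 to 0.156), without METTL3 CRISPR replicate b for JUP, PATJ, KRT23, F11R, NCAM1, ITGB5, ITGB8, CD151 and ITGB2 (0.0527 to 0.253) and without negative CRISPR replicate a for GJB5, CLDN8, ITGA3, CLDN1, ITGA11, PKP3, TJP3, ITGB7, ITGA10, CLDN23, KRT14 and CDH24 (0.0565 to 0.192).

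Vimentin (VIM), the intermediate filament of mesenchymal cells, rose from 3055, 4639.8 and 4069 to 57647, 70635 and 69297 (log2 fold change 4.08 ± 0.28 SE, adjusted p = 8.87e-05), but contractile genes mostly did not. In the list of 26 mesenchymal and contractile cytoskeleton genes, 5 of 21 tested rose and 0 fell, with a median of 0.95 (0.50 without NES). Nestin (NES) was listed at 0 in all negative CRISPR libraries and at 494, 377 and 357 in METTL3 CRISPR (adjusted p = 4.45e-05). The LIM genes FHL1 (3.54), PDLIM3 (4.43) and PDLIM7 (1.51, 0.0195, or 0.112 without METTL3 CRISPR b) rose. Smooth muscle actin (ACTA2) had 1425, 1118 and 807 in the negative CRISPR libraries and 687, 906 and 831 in the METTL3 CRISPR libraries (log2 fold change -0.44, adjusted p = 0.394). TAGLN had 72.5, 72.3 and 100.3 in the negative CRISPR libraries and 1434, 115 and 93.5 in the METTL3 CRISPR libraries (log2 fold change 1.62, adjusted p = 0.31), high in METTL3 CRISPR a only. The genes DES, ACTG2, CNN1, LMOD1 and TRPC4 were under the mean of 10. Over both cytoskeleton lists, 15 of 38 genes were called, against 13% of all genes.

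Extracellular matrix genes rose more often than they fell, with 29 of 74 tested higher and 3 lower and a median of 0.88, against 7.07% higher and 5.96% lower over all genes. Fibronectin (FN1) had 70.5, 65.1 and 81.9 in the negative CRISPR libraries and 55947, 65869 and 134507 in the METTL3 CRISPR libraries (log2 fold change 10.08 ± 0.36 SE, adjusted p = 1.87e-05). SPARC, a collagen-binding matricellular protein, rose from 108, 27.2 and 39.5 to 10619.5, 7686 and 8125 (log2 fold change 7.45, adjusted p = 6.66e-05). Every METTL3 CRISPR library lay far above every negative CRISPR library for both.

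Collagen VI rose in all 3 of its listed chains. COL6A1 had 66.5, 41.1 and 77.0 in the negative CRISPR libraries and 6809, 7015 and 8312 in the METTL3 CRISPR libraries (log2 fold change 6.92 ± 0.32 SE, adjusted p = 2.25e-05), and COL6A3 had 4.48, 6.06 and 16.1 in the negative CRISPR libraries and 314, 932 and 900.4 in the METTL3 CRISPR libraries (log2 fold change 6.2, adjusted p = 0.000477). COL6A2, the neighbour of COL6A1 on chromosome 21, was listed at 0 in negative CRISPR and at 934, 1156 and 1258 in METTL3 CRISPR (adjusted p = 2.25e-05). COL3A1 rose from 0, 0 and 2.25 to 1208, 840.0 and 385 (log2 fold change 8.95, adjusted p = 0.000144). By contrast COL1A1, the main fibroblast collagen, had 94.3, 46.2 and 211 in the negative CRISPR libraries and 60.6, 77.0 and 108 in the METTL3 CRISPR libraries (log2 fold change -0.29, adjusted p = 0.789) with overlapping groups, and COL1A2, COL5A1, COL5A3, COL8A2 and COL14A1 were under the mean of 10. COL5A2 (-1.41, 0.26), COL8A1 (1.44, 0.0663), COL12A1 (0.76, 0.319) and COL16A1 (0.07, 0.949) did not pass, and COL11A1 was not analysed here.

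Basement membrane genes had 7 of 17 higher and 1 lower, against 7.07% and 5.96% of all genes. LAMA4, a laminin chain of mesenchyme and vessels, rose from 275, 419.9 and 212 to 4857, 5606 and 3846 (log2 fold change 4.02 ± 0.33 SE, adjusted p = 0.000192). Collagen IV chains differed, with COL4A1 (2.78) and COL4A2 (2.80) higher and COL4A3 lower, from 63.4, 42.4 and 152 to 0.510, 0 and 1.44 (log2 fold change -5.61, adjusted p = 0.0019). COL7A1 (1.97), LAMC1 (1.86), LAMA1 (2.07) and HSPG2 (1.42) rose. The members COL4A4, COL4A5, COL4A6, COL18A1, LAMA2, LAMA5, LAMB1, LAMB2 and AGRN did not pass (adjusted p from 0.14 to 0.855), and COL15A1, NID1 and NID2 were under the mean of 10.

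Against 7.07% higher and 5.96% lower over all genes, 8 of 21 glycoproteins and proteoglycans rose and 0 fell. These were FN1, SPARC, the fibrillins FBN1 (5.09) and FBN2 (4.94), FBLN1 (2.99), biglycan (BGN, 5.06), osteopontin (SPP1, 8.23) and FBLN2, listed at 0 in negative CRISPR and at 125, 179 and 119.6 in METTL3 CRISPR. Versican (VCAN) had 770.4, 336 and 1480.1 in the negative CRISPR libraries and 14.9, 31.4 and 424 in the METTL3 CRISPR libraries (log2 fold change -3.59, adjusted p = 0.0754), and METTL3 CRISPR c overlapped negative CRISPR. TNC (1.04, 0.108), DCN (0.79, 0.254), THBS1 (0.04, 0.977), CCN2 (0.93, 0.28) and FAP (0.87, 0.268) did not pass, and POSTN, LUM, ELN and THBS2 were under the mean of 10.

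Of enzymes and inhibitors that build or cut matrix, 10 of 27 rose and 2 fell, against 7.07% and 5.96% of all genes. SERPINE2, a protease inhibitor, rose from 765, 842 and 1451 to 87228, 91485 and 130604 (log2 fold change 6.69 ± 0.33 SE, adjusted p = 2.51e-05). TIMP1, an inhibitor of metalloproteinases, rose from 4956, 8108 and 3129 to 100526, 108717 and 81072 (log2 fold change 4.26 ± 0.38 SE, adjusted p = 0.000299). MMP2 (gelatinase A) rose from 69.7, 43.4 and 49.0 to 1815, 1643 and 2129.6 (log2 fold change 5.10 ± 0.32 SE, adjusted p = 5.31e-05). All 3 were higher in every METTL3 CRISPR library than in any negative CRISPR library. MMP1 was listed at 0 in negative CRISPR and at 17.9, 29.7 and 25.9 in METTL3 CRISPR, and ADAMTS12 (6.13), LOXL2 (2.87), ADAMTS1 (2.43), PLOD1 (1.67), PLAT (1.63) and PLAUR (1.18) rose.

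Maspin (SERPINB5), an inhibitor made by mammary epithelium, fell from 4903, 3683 and 6855 to 756, 797 and 1069.7 (log2 fold change -2.53, adjusted p = 0.0013), and MMP14, a membrane protease often linked to invasion, fell from 3883, 2851 and 4561 to 1615, 1802 and 2061 (log2 fold change -1.02, adjusted p = 0.0446). PLAU (0.26, 0.766) did not pass, and MMP3, MMP9, MMP10, MMP12, MMP13 and MMP16 were under the mean of 10. Matrix calls were lost on leaving out a library, with the highest adjusted p without METTL3 CRISPR replicate a for ADAMTS1 and PLAT (0.107 to 0.133) and without METTL3 CRISPR replicate b for PLOD1, LAMA1, HSPG2, PLAUR and MMP14 (0.055 to 0.184).

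Cytokines, their receptors and response genes had 29 of 97 tested called, 26 higher and 3 lower, against 13% of all genes. The median was 0.50, and the number called was 16 without negative CRISPR a and 17 without METTL3 CRISPR b. G-CSF (CSF3), a granulocyte growth factor, had 1.97, 1.55 and 2.28 in the negative CRISPR libraries and 4218, 6303 and 12190.0 in the METTL3 CRISPR libraries (log2 fold change 11.20 ± 0.45 SE, adjusted p = 1.87e-05). IL6 rose from 43.5, 11.1 and 35.9 to 756, 483 and 1367 (log2 fold change 4.88 ± 0.60 SE, adjusted p = 0.00131), and CSF1, a macrophage growth factor, from 296, 72.9 and 242 to 1355, 1237 and 1894 (log2 fold change 3.07, adjusted p = 0.00616). The groups of each did not overlap. IL1RN, the secreted IL-1 receptor antagonist of epithelium, fell from 289, 686 and 451 to 4.5, 3.78 and 1.21 (log2 fold change -6.85 ± 0.57 SE, adjusted p = 0.000207). IL1A (-2.12, 0.175) and IL1B (-0.68, 0.525), the ligands it opposes, overlapped between groups and did not pass.

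Of 18 tested interleukins, colony-stimulating factors and TNF ligands, 5 rose and 1 fell, against 7.07% and 5.96% of all genes, with a median of -0.40. IL32 (3.91) and TSLP (3.87) were the other rises, both from levels near 0. IL18 (-1.07, 0.114), LIF (-0.12, 0.923) and IL11 (-1.37, 0.157) did not pass, and TNF, CSF2, IL24 and IL33 were among 12 under the mean of 10.

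Chemokines had 5 of 10 tested higher and 1 lower, against 7.07% and 5.96% of all genes. CXCL1, a neutrophil attractant, rose from 155, 76.4 and 78.5 to 4762, 2039 and 2733 (log2 fold change 4.92 ± 0.42 SE, adjusted p = 0.000239), and CXCL8 from 141, 50.1 and 278 to 898, 637 and 2057 (log2 fold change 3.06, adjusted p = 0.0188). CXCL3 (2.60) and CCL20 (1.96) rose, and CCL2, an attractant of monocytes, was listed at 0 in negative CRISPR and at 49.1, 9.70 and 12.2 in METTL3 CRISPR (adjusted p = 0.0158). CXCL16 fell (-1.42). CXCL2 (1.48, 0.159), CX3CL1 (0.33, 0.829), CCL5 (2.18, 0.277) and CCL28 (-1.17, 0.0755) did not pass. The members CXCL6, CXCL9, CXCL10, CXCL11, CXCL14, CXCL17 and CCL26 were under the mean of 10, and CXCL5, CXCL12, CCL7, CCL8, CCL11 and CCL13 were not analysed here.

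Among 24 tested receptors 5 rose and 0 fell, against 7.07% and 5.96% of all genes. ACKR1, a decoy chemokine receptor of vessels and red cells, was listed at 0 in negative CRISPR and at 1276, 1783 and 2137 in METTL3 CRISPR (adjusted p = 1.87e-05). TNFRSF1A, the main TNF receptor, rose from 1691, 1475 and 1922 to 7202, 7589 and 9633 (log2 fold change 2.26 ± 0.26 SE, adjusted p = 0.00087). IL7R (4.19), IL13RA2 (2.79) and IL1R1 (1.95) rose. Receptors of the IL-6 family, IL6R (0.94, 0.437), IL6ST (1.41, 0.403), OSMR (0.59, 0.349) and LIFR (0.59, 0.53), did not pass.

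A list of NF-kB subunits and feedback genes, which also holds genes that are neither, among them SRGN and TNFAIP6, had 6 of 19 higher and 0 lower. Over all genes 7.07% were higher and 5.96% lower. RELB, a subunit of the noncanonical pathway, rose from 166, 195 and 139 to 1703, 954 and 1464 (log2 fold change 3.01 ± 0.33 SE, adjusted p = 0.000728), and its partner NFKB2 from 1559, 1817 and 922 to 4104, 3746 and 4725 (log2 fold change 1.60, adjusted p = 0.0123). The canonical subunits RELA (0.30, 0.535) and NFKB1 (-0.13, 0.875) and the feedback inhibitors NFKBIA (0.22, 0.639) and TNFAIP3 (0.91, 0.606) overlapped and did not pass. SRGN, which encodes the proteoglycan serglycin, rose from 0, 2.62 and 1.60 to 6077, 4930.4 and 4859 (log2 fold change 11.28 ± 0.52 SE, adjusted p = 2.25e-05). TNIP1 (1.94), NFKBIE (1.88) and TNFAIP6 (3.13) rose. The others, NFKB1, REL, RELA, NFKBIA, NFKBIB, NFKBIZ, TNFAIP2, TNFAIP3, TNFAIP8, BIRC3, BCL3, TRAF1 and PTGS2, did not pass, TNIP3 and CD40 were under the mean of 10 and SOD2 was not analysed here.

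Interferon response genes gave 5 of 26 higher and 1 lower, against 7.07% and 5.96% of all genes, with a median of 0.32. BST2 (tetherin) rose from 52.3, 20.1 and 27.8 to 24515, 18959.6 and 9966 (log2 fold change 9.03 ± 0.45 SE, adjusted p = 2.51e-05). IFITM1 rose from 609, 200.04 and 300.1 to 13798, 11214 and 11599 (log2 fold change 5.19 ± 0.40 SE, adjusted p = 0.000152), and OAS2 from 14.9, 14.3 and 23.7 to 466, 316 and 138 (log2 fold change 3.91, adjusted p = 0.00237). IRF1 (1.76) and IFI44L (1.80) rose and IFI27 fell (-3.46). Most of the classic set did not pass, among them ISG15 (0.25, 0.85), IFIT1 (-0.67, 0.551) and MX1 (-0.24, 0.852), whose groups overlapped. Calls in these lists were lost on leaving out a library, with the highest adjusted p without METTL3 CRISPR replicate a for IL1R1, IL32, CXCL3 and NFKBIE (0.073 to 0.151), without METTL3 CRISPR replicate b for NFKB2, CCL20, IL13RA2, CXCL16, TNFAIP6, IL7R, IRF1 and TSLP (0.0538 to 0.181) and without negative CRISPR replicate a for CCL2, CXCL8 and IFI44L (0.0562 to 0.0934).

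**Figure D4:**
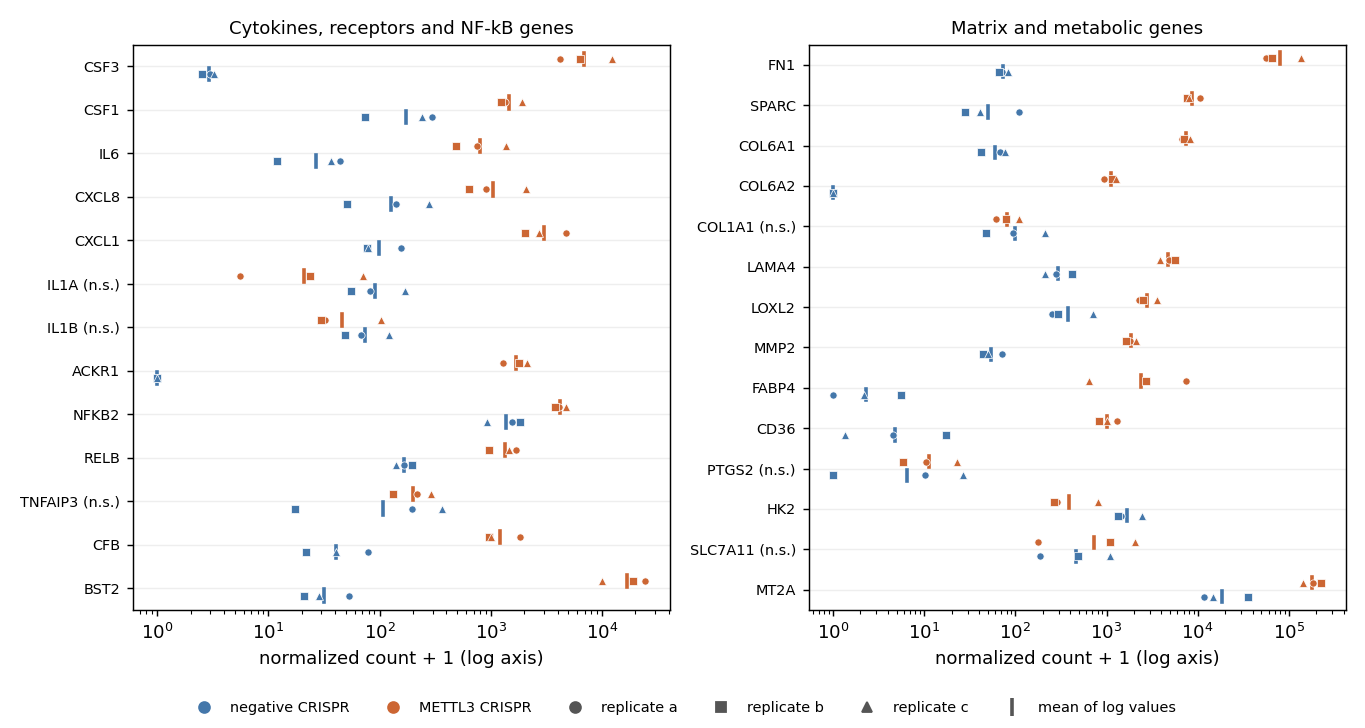
Normalized counts plus 1 (log axis) of cytokine, receptor, NF-kB, matrix and metabolic genes in the 6 MCF10AT1 libraries. Blue is negative CRISPR, orange METTL3 CRISPR, the marker gives the replicate, the bar is the mean of the log values, and n.s. marks genes that did not pass the test. CSF3 lies between 1.55 and 2.28 in negative CRISPR and between 4218 and 12190.0 in METTL3 CRISPR, FN1 between 65.1 and 81.9 and between 55947 and 134507, and IL1B, COL1A1 and PTGS2 overlap.

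Growth factor genes had 22 of 65 tested called, 17 higher and 5 lower, against 13% of all genes. The median was 0.14, and the number called was 10 without METTL3 CRISPR b. The EGF receptors fell: EGFR from 3489, 1985 and 7548 to 381, 602 and 1024 (log2 fold change -2.60, adjusted p = 0.015), ERBB2 by -1.11 in log2 fold change (0.0201) and ERBB3 from 846, 869.8 and 831 to 19.6, 4.83 and 18.2 (log2 fold change -6.01 ± 0.54 SE, adjusted p = 0.000288). These cells are grown with EGF, the ligand of EGFR. None of the 8 tested ligands TGFA, AREG, EREG, BTC, HBEGF, EPGN, NRG1 and NRG2 passed, with adjusted p from 0.0601 (EREG) to 0.952 (BTC), and ERBB4 and EGF were under the mean of 10.

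Among receptors of mesenchymal growth factors 3 of 15 rose, against 7.07% of all genes. FGFR1 rose from 106, 63.3 and 107 to 1746, 4298 and 4568 (log2 fold change 5.16 ± 0.44 SE, adjusted p = 0.000229), AXL from 883, 1437 and 1627 to 3287, 6079 and 5149.8 (log2 fold change 1.88, adjusted p = 0.00922), and NTRK2 from 32.0, 0 and 19.1 to 1495, 737 and 226 (log2 fold change 6.18, adjusted p = 0.0156). NTRK2 was unequal among METTL3 CRISPR libraries, with the lowest in c. PDGFRB had 24.2, 9.82 and 31.4 in the negative CRISPR libraries and 13.5, 16.9 and 26.8 in the METTL3 CRISPR libraries (log2 fold change -0.10, adjusted p = 0.94) and PDGFRA was under the mean of 10, as were FGFR3, KIT and ROR1. The other receptors did not pass: PDGFRB, PDGFRL, FGFR2, FGFR4, MET, IGF1R, NGFR, ROR2, DDR1, DDR2, EPHA2 and EPHB2.

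Of ligands and IGF-binding proteins 7 of 13 rose and 1 fell, against 7.07% and 5.96% of all genes. IGFBP4 rose from 25.3, 72.3 and 21.4 to 20188, 19556 and 11948 (log2 fold change 8.90 ± 0.48 SE, adjusted p = 3.16e-05). IGFBP7 rose from 302, 191 and 242 to 4951, 6315 and 5617 (log2 fold change 4.53, adjusted p = 4.84e-05), and IGFBP3 from 352, 165 and 249.7 to 3753, 3282 and 4958 (log2 fold change 4.01, adjusted p = 0.000239). IGFBP2 (4.39), IGFBP5 (5.98), PDGFA (2.14) and VEGFC (1.70) rose too. These binding proteins sequester or present insulin-like growth factors, whose own genes IGF1 and IGF2 were under the mean of 10. FGFBP1, an epithelial carrier of FGFs, fell from 2241, 3929.8 and 2683 to 191, 44.9 and 14.6 (log2 fold change -5.80, adjusted p = 0.0022). PDGFD, FGF1, FGF5, FGF7 and HGF were under the mean of 10 as well, and PDGFB, PDGFC, FGF2, VEGFA and IGFBP6 did not pass.

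The TGF-beta and BMP pathway had 7 of 26 higher and 1 lower, against 7.07% and 5.96% of all genes. BMP7 rose from 0, 0 and 2.84 to 262, 287 and 212 (log2 fold change 7.33 ± 0.68 SE, adjusted p = 0.000346), TGFB1 from 2733, 3158 and 1362 to 6553, 7156 and 5812 (log2 fold change 1.51, adjusted p = 0.0255) and the mediator SMAD3 from 575, 740.1 and 1052 to 2135, 1915 and 2498 (log2 fold change 1.5, adjusted p = 0.0136). BMP7 was near 0 in negative CRISPR, while TGFB1 and SMAD3 were well detected in both groups. FSTL1 (3.85), SMAD6 (2.73), LTBP3 (1.27) and BMP1 (1.15) rose, and INHBA, the activin A chain, fell (-3.01).

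RAS and MAPK feedback genes, of interest in a line with mutated HRas, had 4 of 18 higher and 1 lower. Over all genes 7.07% were higher and 5.96% lower. HRAS had 12707, 20146 and 12438 in the negative CRISPR libraries and 22037, 26021 and 25059 in the METTL3 CRISPR libraries (log2 fold change 0.72, adjusted p = 0.159). SPRED3 (2.94), SPRY4 (2.73), ETV4 (1.33) and PHLDA1 (1.17) rose, and the immediate early gene EGR1 fell from 28094, 12659 and 28253 to 3379, 2595 and 7391 (log2 fold change -2.43, adjusted p = 0.0121). The other 13, HRAS among them, did not pass. Calls in these lists were lost on leaving out a library, with the highest adjusted p without METTL3 CRISPR replicate a for NTRK2, SMAD6 and INHBA (0.0699 to 0.157), without METTL3 CRISPR replicate b for PDGFA, AXL, EGFR, BMP1, VEGFC, TGFB1 and ETV4 (0.0527 to 0.177) and without negative CRISPR replicate a for SPRY4, EGR1, SMAD3, ERBB2, LTBP3 and PHLDA1 (0.0632 to 0.176).

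Metabolic genes were called near the background rate of 13%, with 37 of 223 tested, 27 higher and 10 lower. The median was 0.14, and the number called was 17 without negative CRISPR a and 18 without METTL3 CRISPR b. The share called differed between lists, from 3 of 4 metallothioneins and 11 of 32 genes of the NRF2, glutathione and aldehyde list to 0 of 40 subunits of oxidative phosphorylation. FABP4, a fatty acid carrier of adipocytes and vessels, had 0, 4.51 and 1.18 in the negative CRISPR libraries and 7527, 2705 and 647 in the METTL3 CRISPR libraries (log2 fold change 10.01 ± 0.94 SE, adjusted p = 0.000355). The fatty acid receptor CD36 rose from 3.55, 16.5 and 0.370 to 1301, 818 and 1001 (log2 fold change 7.74 ± 0.84 SE, adjusted p = 0.000721). Both were near 0 in negative CRISPR, and FABP4 was far lower in METTL3 CRISPR c than in a. FADS3 (1.43) rose and ELOVL7 (-3.23) and SLC27A2 (-1.94) fell, which made 5 of 27 lipid genes, and PLIN2 was under the mean of 10.

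In glycolysis 2 of 24 genes rose and 2 fell, against 7.07% higher and 5.96% lower over all genes. The glucose transporter SLC2A3 rose from 4.12, 37.6 and 62.7 to 362, 416 and 482 (log2 fold change 4.17, adjusted p = 0.0146), and the lactate transporter SLC16A3 from 6689, 11154 and 6798 to 19087, 20780.2 and 21444 (log2 fold change 1.36, adjusted p = 0.0196). Hexokinase 2 (HK2) fell from 1442, 1322 and 2469 to 283, 264 and 799 (log2 fold change -2.10, adjusted p = 0.0231), and PFKP from 8720.5, 13548 and 10097 to 3166, 3651 and 4094 (log2 fold change -1.55, adjusted p = 0.00758). The remaining 20, SLC2A1, HK1, GPI, PFKL, PFKM, PFKFB3, PFKFB4, ALDOA, ALDOC, TPI1, GAPDH, PGK1, PGAM1, ENO1, ENO2, PKM, LDHA, LDHB, SLC16A1 and PDK1, did not pass.

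The TCA cycle list had PC (2.06) and ACO1 (1.24) higher and IDH1 (-1.41) lower among 24, where 13% of all genes were called. Pyruvate carboxylase (PC) had 1561, 2086 and 1569.7 in the negative CRISPR libraries and 7236, 7069.7 and 7307 in the METTL3 CRISPR libraries (log2 fold change 2.06 ± 0.25 SE, adjusted p = 0.00115). In cholesterol synthesis TM7SF2 alone of 23 rose (1.93, 0.0263), and the other 22 did not pass, with a median of 0.05 for the list. Of 40 nuclear subunits of oxidative phosphorylation 0 were called by limma and 0 had groups that did not overlap, with 0 at an unadjusted p under 0.05 and a median of 0.35.

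Amino acid and one-carbon genes had 3 of 33 higher and 2 lower, close to the 7.07% higher and 5.96% lower over all genes. ALDH1L1, a folate enzyme, rose from 53.0, 31.9 and 43.5 to 1207, 1473 and 1429 (log2 fold change 4.99 ± 0.33 SE, adjusted p = 7.19e-05), and glutaminase 2 (GLS2) fell from 743, 640.1 and 469 to 14.6, 8.48 and 52.9 (log2 fold change -4.93 ± 0.63 SE, adjusted p = 0.00165). CBS (3.82) and NNMT (1.87) rose and SLC6A14 fell (-4.22). Prostanoid genes had 4 of 16 higher and 1 lower. HPGD, which degrades prostaglandins, rose from 7.68, 0 and 12.1 to 289.9, 156 and 323 (log2 fold change 5.67, adjusted p = 0.00568), and the synthase PTGES fell from 20956, 31678 and 23316 to 9394, 9044 and 14083 (log2 fold change -1.23, adjusted p = 0.0351). PLAAT4 (5.44), ALOX12B (4.03) and PTGFR (3.75) rose, and PTGS2 had 9.34, 0 and 25.6 in the negative CRISPR libraries and 9.44, 4.90 and 21.9 in the METTL3 CRISPR libraries (log2 fold change 0.79, adjusted p = 0.721).

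The NRF2, glutathione and aldehyde list had 9 of 32 higher and 2 lower, against 7.07% and 5.96% of all genes. NQO1 rose from 2985, 4599 and 2863 to 32436, 36240.2 and 22162 (log2 fold change 3.12 ± 0.32 SE, adjusted p = 0.000524). ALDH3A1 (4.94), AKR1C1 (2.01), AKR1B1 (1.72), HMOX1 (1.66), AKR1C3 (1.48), ALDH3A2 and GPX8 (0.98) rose. ALDH3B2 fell from 201, 67.4 and 177 to 0, 1.78 and 0 (log2 fold change -6.58, adjusted p = 0.00083), and ALDH1A3, an aldehyde dehydrogenase of mammary stem-like cells, from 1607, 1160.5 and 3129 to 268, 303 and 376 (log2 fold change -2.52, adjusted p = 0.00422).

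Of metallothioneins, which bind zinc and copper, 3 of 4 tested rose, against 7.07% of all genes. MT2A had 11789, 36015 and 14568 in the negative CRISPR libraries and 184530.0, 225509 and 141519 in the METTL3 CRISPR libraries (log2 fold change 3.30, adjusted p = 0.00256) and MT1E had 4432, 12156 and 3656 in the negative CRISPR libraries and 53328, 64171 and 40096 in the METTL3 CRISPR libraries (log2 fold change 3.15, adjusted p = 0.00331). MT1X rose (1.72) and MT1F did not pass (-1.13, 0.257), and MT1A, MT1G and MT1M were under the mean of 10. Members of this family and of AKR1C are near-identical, so their separate values are uncertain. Metabolic calls were lost on leaving out a library, with the highest adjusted p without METTL3 CRISPR replicate a for PTGFR (0.0949), without METTL3 CRISPR replicate b for PFKP, SLC2A3, IDH1, HK2, CBS, NNMT, FADS3, TM7SF2, HMOX1, ALOX12B, PTGES and GPX8 (0.0518 to 0.195) and without negative CRISPR replicate a for AKR1B1, AKR1C3, SLC6A14, ELOVL7, ACO1, AKR1C1, ALDH3A2, SLC16A3, SLC27A2 and MT1X (0.0504 to 0.14).

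Of proliferation genes 3 of 87 were called, against 13% of all genes, and this count changed with METTL3 CRISPR c. Of 35 S phase and 35 mitosis genes 0 were called by limma, with 1 (PCNA) and 1 (CDC25B) at an unadjusted p under 0.05 and medians of -0.03 and 0.02. MKI67, a marker of cycling cells, had 2324, 3187 and 2393 in the negative CRISPR libraries and 6527, 4681 and 708 in the METTL3 CRISPR libraries (log2 fold change 0.10, adjusted p = 0.952), so METTL3 CRISPR c stood apart from a and b. Without METTL3 CRISPR c, 9 proliferation genes were called, 7 higher and 2 lower, with a median of 0.45. Without METTL3 CRISPR a or b, 1 was called, lower, with medians of -0.37 and -0.15. CDK6 fell from 1044, 905 and 1067 to 336, 393 and 297 (log2 fold change -1.56, adjusted p = 0.00684), and CCND2 (3.82) and CCND3 (1.05) rose (adjusted p 0.0743 without METTL3 CRISPR a and 0.124 without METTL3 CRISPR b).

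HOX genes keep a record of body position, and 2 of 19 tested were called, against 13% of all genes. HOXA11 rose from 0, 0 and 0.940 to 209, 255 and 375 (log2 fold change 7.77 ± 0.59 SE, adjusted p = 0.000134), and HOXB2 rose (1.47, 0.0349, or 0.167 without METTL3 CRISPR b). The other 17 did not pass. MTAP, a gene in the region of chromosome 9 deleted in MCF10A, had 10.6, 1.53 and 46.5 in the negative CRISPR libraries and 117, 106 and 133 in the METTL3 CRISPR libraries (log2 fold change 3.42, adjusted p = 0.0518), with groups that did not overlap, and 13.2, 17.5 and 8.58 in negative CRISPR MCF10A.

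**Figure D5:**
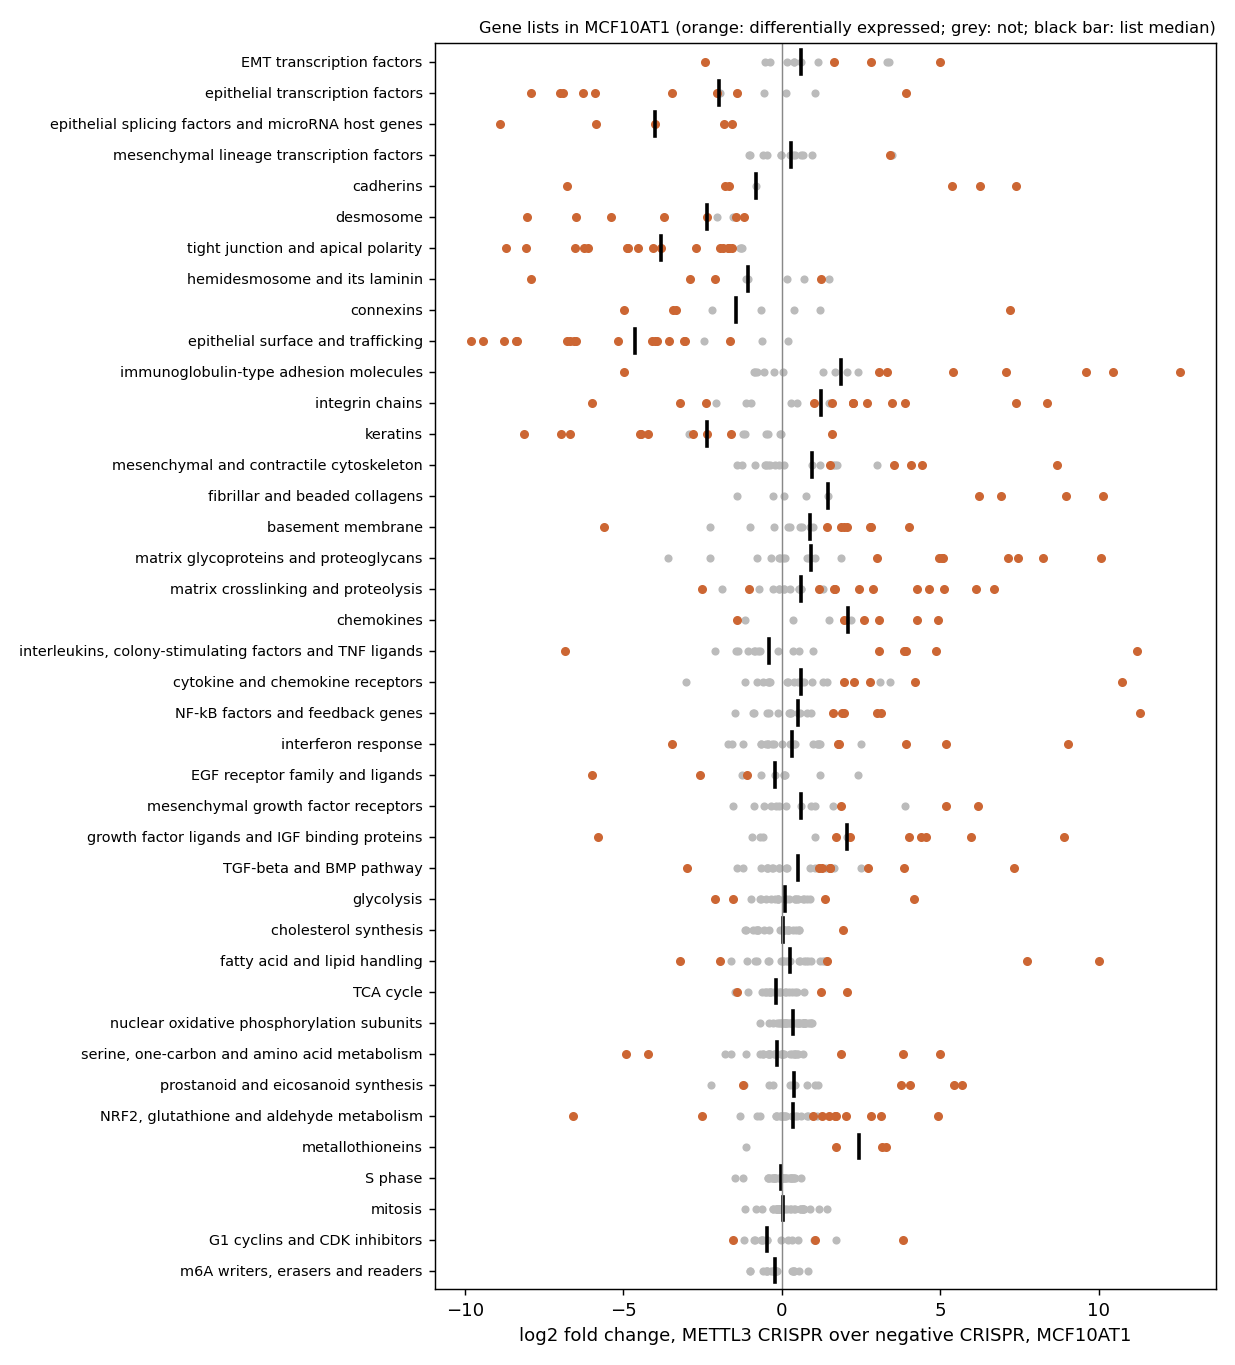
Log2 fold change, METTL3 CRISPR over negative CRISPR, of the tested members of each gene list in MCF10AT1. Each point is a gene, orange where it was differentially expressed and grey where not, and the black bar is the list's median. The list medians are -4.63 for epithelial surface and trafficking, -3.81 for tight junctions, 2.07 for growth factor ligands and IGF-binding proteins and 2.43 for metallothioneins, and those of S phase and mitosis stay near 0.

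Markers of other cell types were read beside these lists, since in a bulk library fewer cells of a type and less RNA per cell cannot be told apart. Of 13 fibroblast markers 6 were tested and COL3A1 and THY1 rose, where 7.07% of all tested genes were higher and 5.96% lower. The summed normalized count of the list lay between 469.7 and 740.0 in negative CRISPR and between 2832 and 4596 in METTL3 CRISPR, and COL1A2, LUM, POSTN and TCF21 were under 10 in all METTL3 CRISPR libraries. This sum counts COL3A1 and THY1, with THY1 at 2557, 2364 and 1199.5 in METTL3 CRISPR, so it is not separate from their rises. For endothelium, ACKR1 and EGFL7 (1.58) rose among 4 tested, and CDH5, VWF, KDR, TEK, TIE1, FLT1 and CLDN5 were under 10 in all METTL3 CRISPR libraries. For blood cells, PTPRC, CD3E, ITGAM and SPI1 were under 10, ITGAX rose (3.19) and LCP1, an actin bundler, fell from 2890.1, 3611 and 2766 to 3.29, 24.2 and 25.6 (log2 fold change -7.75, adjusted p = 0.000253).

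Of 8 melanocyte and neural crest markers with values, 5 were under the mean of 10. Of the 3 tested 1 was called, against 13% of all genes, with a median of -0.94. MAP2 (1.46), SERPINA1 (3.24) and TNNT1 (-3.77) were called in the neural, hepatocyte and muscle lists, of which SOX2, APOA1 and MYOG were under 10. Smooth muscle and myoepithelial markers had 0 of 5 called, with 1 (SMTN) at an unadjusted p under 0.05, and kidney and adrenal markers 0 of 1, with 0. Basal breast markers fell in 6 of 10, TRIM29 (-5.83), KRT17 (-4.47), KRT5 (-4.24), SFN (-3.08), KRT14 (-2.36) and CDH3 (-1.81), and luminal markers in 1 of 6, FOXA1. Over all genes 5.96% fell. ESR1, PGR, ELF5 and KIT were under 10 in all METTL3 CRISPR libraries.

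The labelled cell type is a breast epithelial cell, and its markers did not all move one way. In METTL3 CRISPR the keratins KRT7, KRT8 and KRT18, GATA3, TP63 and ITGB4 were detected and not called different, whereas CDH1, claudins, desmosome genes, 6 of 10 basal markers and FOXA1 fell, and KRT19 did not pass (-2.94, adjusted p = 0.119). Of fibroblast genes, COL3A1 (8.95) and THY1 (9.61) rose, COL1A1, ACTA2 and TWIST1 did not pass, and COL1A2, LUM and PDGFRA were under the mean of 10. The marker lists therefore do not settle how complete a change of identity was, and the comparison is described by its leading genes, lower junction, claudin and basal keratin RNA with higher FN1, VIM, COL6A1, CDH2, CADM3, CSF3 and ICAM1.

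The effect in MCF10AT1 was set against the effect of METTL3 CRISPR in the other 2 lines by interaction contrasts in a fit of all 18 libraries and 15897 genes. It differed from that in MCF10A for 3437 genes (21.6%), from that in MCF10CA1h for 2890 (18.2%) and from both for 1884 (11.9%). Against that last share, 67 of 105 adhesion genes differed from both, 19 of 45 transcription factors, 26 of 73 matrix genes, 22 of 64 growth factor genes, 10 of 37 cytoskeleton genes and 19 of 93 cytokine genes, while 30 of 223 metabolic genes and 3 of 87 proliferation genes did. This fit shares an estimate of the spread of each gene over the 3 lines. Replicates agreed less in MCF10AT1 (mean r 0.916 and 0.941) than in MCF10CA1h (0.979 and 0.976). The same fit called 5146 genes in MCF10AT1, against 2091 with its 6 libraries alone. Counts and p-values of these contrasts can therefore understate the error of the MCF10AT1 effect.

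For CDH1 the difference of log2 fold changes was -6.61 from MCF10A (standard error 0.68, adjusted p = 2.88e-06) and -6.99 from MCF10CA1h (0.68, 1.59e-06), against its own effects of -0.19 in MCF10A and 0.19 in MCF10CA1h. FN1 differed by 11.02 (2.04e-10) and 8.16 (2.14e-09), with effects of -0.94 and 1.92. VIM differed by 5.02 (2.1e-08) and 3.86 (4.39e-07), with effects of -0.93 and 0.23. In each case the effect in the other 2 lines was smaller in size than in MCF10AT1.

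Some genes met both tests differently. IFI27 differed from MCF10CA1h (difference of log2 fold changes -9.35, adjusted p = 1.2e-05), while its difference from MCF10A did not pass (3.06, 0.0576). The line's own effect on IFI27 was -3.46 in MCF10AT1, -6.52 in MCF10A and 5.89 in MCF10CA1h. NNMT differed by 0.05 from MCF10A (0.968), where its own effect was 1.83. In levels, NES stood at 1138, 1281 and 1113 in negative CRISPR MCF10CA1h and CLDN7 at 28.2, 33.3 and 61.6, while the MCF10AT1 METTL3 CRISPR libraries had 494, 377 and 357 and 9.95, 11.6 and 14.9. CADM3 stood at 83.8, 115 and 145 in negative CRISPR MCF10CA1h, below its 7779, 11305 and 19143 in MCF10AT1 METTL3 CRISPR.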

How the data were processed

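The authors' methods describe stranded libraries of total RNA depleted of ribosomal RNA, whereas polyA RNA stands in a heading and in the labels, and which of these holds is unknown. The authors sequenced both ends, pseudo-aligned reads with kallisto 0.46.1, obtained gene values through tximport, and applied DESeq2 1.26.0 normalization in R 4.1.1, with hg38 named as the build. The table the authors deposited holds normalized counts with decimals, a signal that is neither a read count nor a value per length, for 35933 genes, and 24646 further entries without values were not used. A symbol was found for 35894 genes, 39 had none, and 294 shared a symbol with a higher gene. Between 20.0% and 44.8% of low values were whole multiples (within 0.02) of a library's most frequent low value, so reads were not recovered, no count test was run and the depth per gene is unknown.

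Genes whose 6 MCF10AT1 libraries averaged 10 or more were tested in R 4.3.3 with limma 3.58.1 (lmFit, eBayes with an intensity trend) on log2(normalized count + 1), 3 libraries against 3, with two-sided p adjusted over all 16050 genes by Benjamini-Hochberg and a threshold of 0.05. Differences between lines were interaction contrasts in a fit of the 18 libraries. METTL3 was also tested by an exact permutation test. Other values and plots used Python 3.11.15 with pandas 2.3.3, NumPy 2.4.6, SciPy 1.17.1 and matplotlib 3.10.9. The fit was tested on simulated data. Gene positions are from GENCODE release 44, and promoter and microRNA sequences from RefSeq on GRCh38.p14.

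Groups came from the labels. The comparison, the gene lists and the tests were chosen with earlier results of these data known. Named genes were METTL3, members of lists with 25 or fewer genes, the called members with the 8 largest rises and falls of longer lists, the 15 largest rises and 15 largest falls over all genes with a mean of at least 50 and groups that do not overlap, and genes listed at 0 in a group with a mean of at least 500 in the other. Genes of 2 longer lists that did not pass are named as examples. Alternatives were pseudocounts of 0.5 and 5, no filter or a mean of at least 50, no trend, all 18 libraries in a fit, other scalings, the replicate letter as a block, a threshold of 0.01, a log2 fold change of 1 or more in size and each library left out in turn. Leaving out replicate c of both groups was added after seeing the data. Some items of the gene lists are counted with their lists and not reported singly here.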

Additional observations from a re-analysis of the deposited data

Results flagged for a closer look

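The effect of METTL3 CRISPR differed between lines by interaction contrasts in limma. It differed between MCF10AT1 and MCF10A for 3437 genes, between MCF10AT1 and MCF10CA1h for 2890 genes and from both for 1884 of 15897 genes. That is 11.9% of genes, and by theme they were 67 of 105 for adhesion, 19 of 45 for transcription factors, 26 of 73 for matrix, 22 of 64 for growth factors, 10 of 37 for cytoskeleton, 19 of 93 for cytokines, 30 of 223 for metabolism and 3 of 87 for proliferation. These contrasts share an estimate of spread over all lines, which can understate the error of the MCF10AT1 effect. COL17A1 had the effects -7.92 in MCF10AT1, -0.53 in MCF10A and 0.82 in MCF10CA1h, on the log2 scale. SERPINE2 had 6.69, -0.75 and -0.61, and MT2A had 3.30, -1.09 and 0.58 in the same order. CDK6 had -1.56, 0.40 and 0.24.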

How the results depend on the processing

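The stricter thresholds were applied to counts of genes and not gene by gene. Of 282 called genes named or listed, 178 were called in every other alternative that tested them, and over 4475 combinations of gene and alternative 3967 kept their call, 508 lost it and 0 changed direction. METTL3 did not pass under any alternative. Each line is a single clone and depth per gene is unknown, which limits low genes most. With equal sums per library the median log2 fold change of all genes moved from 0.02 to -0.14, and 930 genes were higher and 999 lower in place of 1134 and 957.

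Leaving out 1 library at a time gave 1038 (METTL3 CRISPR b) to 2420 (negative CRISPR b) differentially expressed genes, 11 to 20 among transcription factors, 16 to 26 among cytokines, 10 to 24 among growth factors, 17 to 40 in metabolism and 1 to 9 in proliferation. Without replicate c of both groups, proliferation had 8. At an adjusted p under 0.01 the counts were 1010 genes in all, 11 transcription factors, 14 cytokines, 12 growth factors, 16 in metabolism and 1 in proliferation. With all 18 libraries in a fit they were 5146 in all, 36 growth factors, 75 in metabolism and 8 in proliferation. The cause of these shifts was not tested.

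With the replicate letter as a block, 3939 genes were called, with 23 in cytoskeleton, 35 in growth factors, 59 in metabolism and 8 in proliferation. With this block 9 of 9 tested desmosome genes were called lower, against 7 in the main fit. Same-letter libraries deviated from their group means with r of 0.0974 (a), 0.272 (b) and 0.473 (c). Libraries b and c correlated best with their own letter, whereas METTL3 CRISPR a correlated better with negative CRISPR b (0.253). The letters were not taken as pairs in the main fit, and whether they mark a shared batch was not tested. The block changed no call of METTL3.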

Other observations

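Further gene groups were examined after their values were seen, so their counts are descriptions. Complement genes, which encode serum factors that tag and lyse cells, had 7 of 16 tested higher and 0 lower, where 7.07% of all tested genes were higher and 5.96% lower, with a median log2 fold change of 1.73 against 0.02 over all genes. Factor I (CFI), a protease that inactivates C3b and C4b, rose from 7.90, 0 and 6.74 to 948, 769 and 672 (log2 fold change 7.59, adjusted p = 0.000699). Factor B (CFB) rose (4.90), as did the classical proteases C1S (4.55) and C1R (2.93). For each of these the groups did not overlap. C4A and C4B also rose, but they are near-identical copies and their separate values are uncertain.

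MHC class I and antigen processing genes had 6 of 15 tested higher (7.07% over all genes) and 0 lower, with a median of 1.32. The immunoproteasome subunit PSMB9 rose from 9.63, 22.4 and 9.39 to 453, 306 and 86.2 (log2 fold change 4.07, adjusted p = 0.00628), and tapasin (TAPBP) from 1196, 1186 and 1347 to 5269, 4624 and 4176 (log2 fold change 1.91, adjusted p = 0.00147). HLA-B (2.11) rose, with reads that related HLA genes can share. B2M (1.41, adjusted p = 0.016, or 0.0806 without METTL3 CRISPR b) and PSMB8 (1.68, 0.0299, or 0.129 without METTL3 CRISPR b) rose as well.

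Kallikrein-related peptidases, proteases of skin and glandular epithelium in a cluster on chromosome 19, fell in all 6 of 6 tested genes, against 5.96% of all genes. KLK7 fell from 592, 506 and 419 to 0, 3.34 and 4.29 (log2 fold change -7.46, adjusted p = 0.000331), and KLK5 from 211, 179 and 93.0 to 0, 4.28 and 2.71 (log2 fold change -5.83, adjusted p = 0.00173). KLK6 (-3.99), KLK10 (-3.61) and KLK4 (-3.68, adjusted p 0.115 without negative CRISPR a) fell, and KLK8 went from 49.6, 58.9 and 43.3 to a listing of 0 in METTL3 CRISPR. Of the S100 calcium-binding proteins 3 of 13 fell, against the same 5.96%, and 0 rose. S100A14 fell from 24329.6, 54631 and 20972 to 147, 229 and 183 (log2 fold change -7.36, adjusted p = 3.16e-05) and S100A2 from 71052, 184097 and 41162 to 6596, 2778 and 1684 (log2 fold change -4.70, adjusted p = 0.0022), with S100P also lower (-2.81).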
